A study of Bos taurus with 6 samples.

Results

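The genes described here encode the signaling pathways of transforming growth factor beta (TGF-beta), the activins and the bone morphogenetic proteins (BMPs). They were found as the rows of the gene table whose identifier is the prefix gene- followed by one of 48 chosen symbols, and all 48 symbols had a row among the 23475 genes. Of these members, 40 had a mean of at least 0.5 FPKM (fragments per kilobase of transcript, scaled to the mapped fragments of each library) over all libraries and were tested, among 12422 genes tested in all.

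RNA was sequenced from bovine cells 48 h after transfection with bta-miR-484 agomir, a chemically modified mimic that supplies the microRNA, in 3 libraries, or with agomir NC, its negative control, in 3 libraries. Both groups were kept in high-glucose DMEM with fetal bovine serum and antibiotics, and no genetic change separated them. The labels call the cells adipocytes, while the study's methods describe preadipocytes isolated with collagenase from the subcutaneous fat of premature calves. Whether the 3 libraries of each group stand for separate calves or for repeat wells of pooled cells is not stated in either source, so the p-values measure only the spread between these libraries. The level of bta-miR-484 itself was not analysed here. Depth is unknown, since the table holds no counts.

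Dimeric ligands of this family bring together type I and type II receptor kinases, which phosphorylate SMAD proteins that then enter the nucleus with SMAD4. TGF-beta and the activins signal mainly through SMAD2 and SMAD3, and the BMPs through SMAD1, SMAD5 and SMAD9. In fat, TGF-beta and activin A hold preadipocytes back from differentiation, whereas BMP4 and BMP2 can commit precursors to the adipocyte lineage.

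Stromal genes were abundant, and the genes that define mature adipocytes were low or near 0, which does not match the adipocyte label. COL3A1, a fibrillar collagen and the most abundant of the 14 preadipocyte and stromal markers, stood at 7428, 7666 and 7563 FPKM in the agomir libraries, against 7676, 7916 and 7491 FPKM in the agomir NC libraries. Of the 10 mature adipocyte markers, 5 were tested, and the most abundant was ADIPOR2, an adiponectin receptor, at 7.88 to 8.79 FPKM. LPL, a lipase, lay at 3.48 to 4.33 FPKM and FABP4, a fatty acid carrier, at 1.54 to 3.57 FPKM. The lipid droplet genes PLIN1 and CIDEA lay at 0.974 to 1.56 and 1.14 to 1.5 FPKM. The hormone genes ADIPOQ and LEP did not exceed 0.197 and 0.0368 FPKM in any library, and CIDEC, also of the lipid droplet, did not exceed 0.230 FPKM. The preadipocyte marker DLK1 was listed at 0 in every library, and CD34 lay below 0.5 FPKM on average.

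No member passed the adjusted threshold, and the differences between the groups were small for every member tested. In bulk samples such as these, fewer cells of a type and less RNA per cell cannot be told apart. With limma's moderated test and Benjamini-Hochberg adjustment over all genes tested, 0 of the 40 members had an adjusted p under 0.05 (6 were under an unadjusted p of 0.05), against 1 gene (0.00805%) of the whole table. That gene, named here after its values were seen, was TRAPPC4, a vesicle transport gene outside the pathway, higher by 0.61 on the log2 scale (limma, adjusted p = 0.0216). There were 0 such genes without agomir replicate 1, without agomir NC replicate 2, with no filter and with no variance trend, and 2 without agomir NC replicate 3. The lowest adjusted p of a member in limma was 0.225, for TGFBI, and the lowest in any alternative processing was 0.21. Fold changes are differences of log2(FPKM + 0.5), agomir minus agomir NC, a scale that understates the change of genes with low values. They ran from -0.24 for INHBA to 0.20 for SMAD7. Every one of the 40 unadjusted 95% intervals lay between -0.48 and 0.41, inside the bounds of a 1.5-fold difference in either direction. The median fold change of the members was 0.043 on the log2 scale, beside 0.013 for all genes tested. That median was 0.024 without agomir replicate 2 and 0.022 without agomir NC replicate 3, beside 0.0090 and 0.016 for all genes. It was 0.029 after median-ratio scaling and 0.025 after quantile normalization, beside -0.00071 and 0.0030 for all genes. The fold change was above 0 for 25 members (62.5%) and below 0 for 15, while it was above 0 for 55.1% of all genes tested. The median absolute fold change was 0.070 among the members and 0.075 among all genes tested.

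At an unadjusted p under 0.05 in limma, 6 of 40 members (15%) differed, beside 10.9% of all genes tested. TGFBR3, BMPR2, SMAD7 and ID3 were higher with the agomir, 10% of the members beside 6.63% of all genes. TGFB1 and TGFBI were lower, 5% of the members beside 4.31% of all genes. These counts rested in part on single libraries: 3 members were under 0.05 without agomir replicate 2 and 3 without agomir replicate 3, beside 8.09% and 8.86% of all genes in those fits. The higher members numbered 1 and 2 in the same order, beside 4.47% and 5.24% of all genes. The lower ones numbered 4 without agomir NC replicate 1 (4.8% of all genes), 1 without agomir replicate 3 (3.62%), 1 without agomir NC replicate 3 (3.08%) and 4 after quantile normalization (5.06%). Quantile normalization left 3 higher members, beside 5.6% of all genes. After median-ratio scaling 3 members were higher and 3 lower, beside 5.42% and 5.54% of all genes. TGFBI and ID3 stayed under 0.05 whichever library was left out.

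All 3 libraries of one group lay outside the range of the other for 10 of 40 members (25%), beside 17.2% of all genes tested. Of these, 7 were higher with the agomir, where 10.9% of all genes tested were. They were TGFBR3, BMPR2, SMAD7, ID3, SKI, SKIL and SMURF2. The other 3, TGFB1, BMP4 and TGFBI, were lower, where 6.36% of all genes tested were. After median-ratio scaling the counts were also 7 higher and 3 lower, beside 8.99% and 8% of all genes. Quantile normalization gave 7 and 3 as well, beside 8.94% and 7.3%. Without agomir replicate 1 the counts were 16 higher and 5 lower, where 17.5% of all genes were then higher without overlap and 10.5% lower. Without agomir NC replicate 3 there were 12 higher, where 16.5% of all genes were, and without agomir NC replicate 1 there were 5 lower, where 11.9% were. For each of the 10, the exact permutation test over the 20 labelings of the libraries gave a two-sided p of 0.1, the smallest that 3 libraries against 3 can give.

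**Figure D1:**
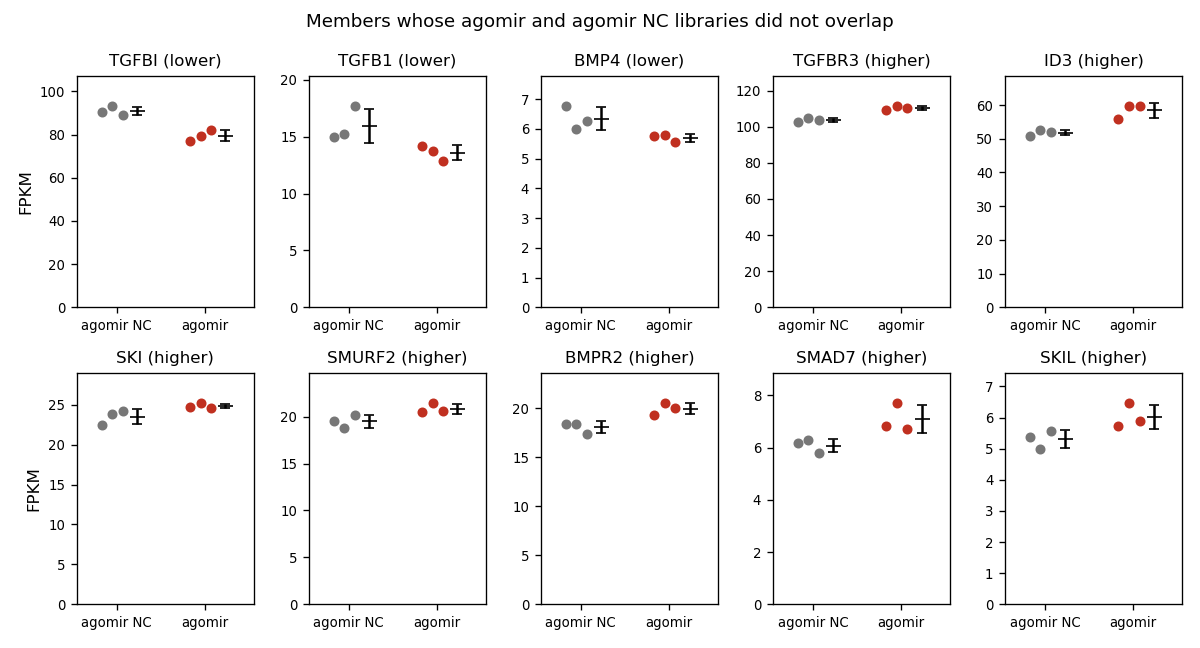
FPKM of the 10 members whose groups did not overlap, with 1 point per library (grey, agomir NC; red, agomir) and the mean ± SD of each group beside the points; every axis starts at 0. TGFBI, TGFB1 and BMP4 were lower in all 3 agomir libraries, and the other 7 members were higher in all 3.

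Among the 7 genes of the TGF-beta ligands and the proteins that hold them latent, TGFB1 was the one whose groups did not overlap. Over all genes tested, 17.2% did not overlap. TGFB1, the most widely expressed of the ligand isoforms, stood at 14.1, 13.8 and 12.9 FPKM in the agomir libraries, against 14.9, 15.2 and 17.7 FPKM in the agomir NC libraries. Every agomir library was below every agomir NC library, and agomir NC replicate 3 lay highest, away from its group. The group means were 13.6 ± 0.664 and 15.9 ± 1.5 FPKM (mean ± SD, n = 3 each). Its log2 fold change was -0.22 ± 0.075 (SE), with limma p-values of 0.0156 unadjusted and 0.362 adjusted. It was -0.15 without agomir NC replicate 3 and -0.18 without agomir replicate 3, and the unadjusted p was then 0.0592 and 0.0601. TGFB2 and TGFB3, the other isoforms, were less abundant, at 2.51 to 3.27 and 4.73 to 6.14 FPKM, and overlapped between the groups. LTBP2, a matrix protein of the latent TGF-beta binding family that does not itself bind latent TGF-beta, was the most abundant gene of this group. LTBP2 stood at 222, 229 and 220.1 FPKM in the agomir libraries, against 221, 227 and 199.7 FPKM in the agomir NC libraries. Its groups overlapped, and agomir NC replicate 3 was the low library. The fold change of LTBP2 was 0.052 on the log2 scale and -0.0030 without that library. LTBP3, which anchors latent TGF-beta in the matrix, lay at 40.6 to 43.8 FPKM, LTBP4 at 14.4 to 17.2 FPKM and LTBP1 at 2.58 to 3.41 FPKM, with overlapping groups for each. LTBP1 had the largest positive fold change of the ligand and latency genes, 0.16 ± 0.11 (SE) on the log2 scale, which was 0.095 without agomir replicate 2 and 0.24 without agomir replicate 1. The 7 genes of this group summed to 304, 310.5 and 300.1 FPKM with the agomir and to 304, 315 and 285 FPKM with agomir NC, with no separation of the groups.

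The TGF-beta receptors were led by TGFBR3, or betaglycan, a co-receptor without a kinase that presents ligand, TGF-beta 2 above all, to the signaling receptors. It stood at 109, 111 and 110.1 FPKM in the agomir libraries, against 102, 105 and 104 FPKM in the agomir NC libraries. The agomir libraries were all above the agomir NC libraries, and the spread inside each group was narrow, with SDs of 0.960 and 1.21 FPKM. The difference was small, a log2 fold change of 0.089 ± 0.037 (SE), with limma p-values of 0.0385 unadjusted and 0.429 adjusted. Its unadjusted p stayed under 0.05 in 1 of the 6 fits that left out a library, the one without agomir NC replicate 2, and reached 0.096 without agomir NC replicate 1. With all 6 libraries kept it was 0.0698 after median-ratio scaling and 0.122 with no variance trend. TGFBR1, the type I kinase, lay at 25.4 to 28.8 FPKM and TGFBR2, the type II kinase, at 18.2 to 20.6 FPKM, and the groups overlapped for both. All 3 receptors had fold changes above 0, though that of TGFBR1, 0.021, was -0.012 without agomir replicate 3 and -0.022 without agomir NC replicate 2. Their sum was 155, 160.0 and 157 FPKM with the agomir and 148, 150.3 and 150.5 FPKM with agomir NC, so every agomir library was above every agomir NC library. TGFBR3 made up most of it, so this is not a separate result.

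Activin signaling genes showed no separation between the groups. INHBA, which encodes the subunit of activin A, stood at 3.49, 2.67 and 3.05 FPKM in the agomir libraries, against 3.40, 3.81 and 3.90 FPKM in the agomir NC libraries. Agomir replicate 1 lay above agomir NC replicate 1, so the groups overlapped by that pair of libraries. INHBA had the lowest fold change of any member, -0.24 ± 0.11 (SE) on the log2 scale, with limma p-values of 0.0540 unadjusted and 0.466 adjusted. It was -0.16 without agomir replicate 2 and -0.32 without agomir replicate 1. The unadjusted p of INHBA was 0.0193 without agomir replicate 1 and 0.042 without agomir NC replicate 1. It was also under 0.05 after median-ratio scaling (0.0476), after quantile normalization (0.0464) and with no variance trend (0.0447). INHBB, the subunit of activin B, did not exceed 0.351 FPKM and was not tested. FSTL1, a secreted glycoprotein related to follistatin, was the most abundant of all 48 members, and 0.934% of the genes tested had a higher mean. FSTL1 stood at 448, 461 and 452 FPKM in the agomir libraries, against 447, 447 and 451 FPKM in the agomir NC libraries. The ranges overlapped and the log2 fold change was 0.015 ± 0.035 (SE), or 0.0040 without agomir replicate 2. It was 0.061 after quantile normalization and 0.00024 after median-ratio scaling. Follistatin, the product of FST, binds activins and blocks them. FST lay at 10.5 to 14.3 FPKM with its lowest value in agomir NC replicate 2, and its fold change of 0.048 became -0.069 without that library. FSTL3, a second inhibitor of activin, lay at 13.5 to 15.2 FPKM with overlapping groups.

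The type I and type II receptors grouped with activin included ACVR1, which also carries BMP signals and was the most abundant of the 4. ACVR1 stood at 19.7, 20.6 and 19.0 FPKM in the agomir libraries, against 19.8, 19.7 and 20.1 FPKM in the agomir NC libraries. The groups overlapped fully and the log2 fold change was -0.0081 ± 0.052 (SE), or 0.019 without agomir replicate 3. ACVR2A, a type II receptor, lay at 7.77 to 8.59 FPKM. ACVR1B, the main type I receptor of activin, lay at 3.29 to 4.12 FPKM, with overlapping groups and a log2 fold change of 0.14 ± 0.094 (SE), which was 0.092 without agomir replicate 2. ACVR2B, a type II receptor also used by myostatin, did not exceed 0.302 FPKM and was not tested.

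Of the BMP ligands, BMP4 was the only one above 2 FPKM in any library, and it was lower in the agomir libraries. BMP4 stood at 5.76, 5.78 and 5.55 FPKM in the agomir libraries, against 6.76, 5.997 and 6.27 FPKM in the agomir NC libraries. The groups did not overlap, although agomir NC replicate 2 lay close to the agomir libraries. The log2 fold change of BMP4 was -0.14 ± 0.075 (SE), with limma p-values of 0.0909 unadjusted and 0.535 adjusted, and the first was 0.0462 after quantile normalization. BMP2 lay at 1.32 to 1.67 FPKM with overlapping groups. BMP6 did not exceed 0.193 FPKM, and BMP7 was listed at 0 in every library. BMP1 is not a ligand but a metalloproteinase that trims procollagens and cleaves the BMP antagonist chordin. Its values were 132, 126 and 125 FPKM with the agomir and 129, 137 and 125 FPKM with agomir NC. Those groups overlapped and the log2 fold change was -0.030 ± 0.046 (SE), or -0.0035 after quantile normalization. The fold changes of BMP4, BMP2 and BMP1 were all below 0, but without agomir NC replicate 2 those of BMP1 and BMP2 were 0.0062 and 0.0026.

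Among the 3 BMP receptors, BMPR2 was the one whose groups did not overlap, where 17.2% of all genes tested did not. BMPR2, the type II receptor of the BMPs, stood at 19.4, 20.5 and 20.001 FPKM in the agomir libraries, against 18.4, 18.4 and 17.3 FPKM in the agomir NC libraries. All agomir libraries were above all agomir NC libraries. Group means were 19.96 ± 0.583 and 18.1 ± 0.617 FPKM (mean ± SD, n = 3 each). BMPR2 had a log2 fold change of 0.14 ± 0.054 (SE), with limma p-values of 0.0261 unadjusted and 0.399 adjusted. The unadjusted p was 0.0821 without agomir replicate 2, 0.0653 without agomir replicate 3, 0.0821 without agomir NC replicate 3 and 0.0585 after quantile normalization. The type I receptors were less abundant, BMPR1A at 8.48 to 9.90 FPKM and BMPR1B at 3.01 to 3.91 FPKM, and their groups overlapped. BMPR1B had a log2 fold change of 0.15 ± 0.096 (SE) and BMPR1A one of 0.064 ± 0.075 (SE). The first was 0.085 without agomir NC replicate 2, and the second 0.018 without agomir NC replicate 1. All 3 fold changes stayed above 0 in the 11 alternatives that can move a fold change, in some of which 16 of the 40 members tested turned. The summed level of the 3 receptors was 31.7, 34.3 and 33.6 FPKM with the agomir and 30.3, 30.5 and 30.6 FPKM with agomir NC. These sums did not overlap, but BMPR2 made up most of them, so this is not a separate result.

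The 3 extracellular BMP antagonists among the members, and BAMBI, a pseudoreceptor without a kinase, were too low to be tested. BAMBI had the highest mean of the 4, with 0.276, 0.529 and 0.534 FPKM in the agomir libraries and 0.249, 0.417 and 0.564 FPKM in the agomir NC libraries. Replicate 1 was the low library in both groups, and the groups overlapped. CHRD (chordin) lay at 0.268 to 0.503 FPKM, GREM1 (gremlin) at 0.130 to 0.318 FPKM and NOG (noggin) at 0.117 to 0.272 FPKM. The sum of the 4 was at most 1.43 FPKM in any library.

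All 8 SMAD genes were expressed. SMAD7 was the one of the 8 whose groups did not overlap, where 17.2% of all genes tested did not. SMAD7, an inhibitory SMAD that is itself induced by TGF-beta and BMP and recruits ubiquitin ligases to the receptors, stood at 6.82, 7.70 and 6.72 FPKM in the agomir libraries, against 6.18, 6.28 and 5.79 FPKM in the agomir NC libraries. The agomir libraries were all higher, and agomir replicate 2 stood above the other two. Means were 7.08 ± 0.539 and 6.08 ± 0.257 FPKM (mean ± SD, n = 3 each). Its log2 fold change of 0.20 ± 0.079 (SE) was the highest of all members, with limma p-values of 0.0289 unadjusted and 0.403 adjusted. The unadjusted p was 0.113 without agomir replicate 2, where the fold change was 0.14, and 0.0859 without agomir NC replicate 3. SMAD6, the other inhibitory SMAD, which acts mainly on BMP signaling, lay at 3.48 to 4.12 FPKM with overlapping groups and a log2 fold change of -0.030 ± 0.092 (SE).

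SMAD3, the most abundant SMAD and an effector of TGF-beta and activin, stood at 33.2, 34.6 and 33.2 FPKM in the agomir libraries, against 32.4, 35.7 and 29.4 FPKM in the agomir NC libraries. The agomir NC libraries spanned the whole agomir range. SMAD2, its partner, lay at 9.57 to 10.8 FPKM in 5 libraries and at 14.0 FPKM in agomir NC replicate 2. The log2 fold change of SMAD2 was -0.17 ± 0.11 (SE), and it was -0.029 without that library. Without agomir NC replicate 1 it was -0.26, with an unadjusted p of 0.0486. SMAD4, the shared partner of both branches, lay at 15.7 to 18.7 FPKM. Among the BMP effectors, SMAD5 lay at 15.1 to 18.4 FPKM, SMAD1 at 9.44 to 11.4 FPKM and SMAD9 at 3.08 to 3.89 FPKM, all with overlapping groups. SMAD5 had the largest fold change of these 3, 0.12 ± 0.064 (SE) on the log2 scale, with an unadjusted p of 0.0836 in limma, and 0.077 without agomir replicate 2. Summed over the 8 genes, the SMADs stood at 98.2, 108 and 103 FPKM in the agomir libraries, against 99.6, 107 and 96.2 FPKM in the agomir NC libraries.

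The nuclear repressors SKI and SKIL and the ubiquitin ligases SMURF1 and SMURF2 all limit SMAD signaling. Of these 4 genes, 3 were higher without overlap, where 10.9% of all genes tested were, and 0 had an unadjusted limma p under 0.05. SKI, the most abundant, stood at 24.7, 25.2 and 24.6 FPKM in the agomir libraries, against 22.4, 23.8 and 24.2 FPKM in the agomir NC libraries. Agomir NC replicate 3 came close to the agomir libraries without reaching them. SKIL, also called SnoN, stood at 5.72, 6.46 and 5.89 FPKM in the agomir libraries, against 5.37, 4.98 and 5.56 FPKM in the agomir NC libraries. The gap between the lowest agomir and the highest agomir NC library was narrow. SMURF2, which can mark receptors bound by SMAD7 for breakdown, stood at 20.5, 21.4 and 20.6 FPKM in the agomir libraries, against 19.5, 18.7 and 20.2 FPKM in the agomir NC libraries. Here too the groups did not overlap, with agomir NC replicate 3 nearest to the agomir libraries. On the log2 scale the differences were 0.081 ± 0.051 (SE) for SKI, 0.17 ± 0.081 (SE) for SKIL and 0.095 ± 0.053 (SE) for SMURF2. That of SKI was 0.049 without agomir NC replicate 1. Their unadjusted p-values in limma were 0.144, 0.0658 and 0.105, and that of SKIL was 0.0477 with no variance trend. SMURF1 lay at 5.15 to 6.17 FPKM with overlapping groups, and its fold change of 0.039 was -0.016 without agomir replicate 3 and -0.0070 without agomir NC replicate 3. The sum of the 4 genes was 56.3, 58.5 and 57.3 FPKM with the agomir and 52.6, 53.6 and 55.1 FPKM with agomir NC, with all agomir libraries higher. SKI, SKIL and SMURF2 made up most of it, so this is not a separate result.

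The target genes included the members with the lowest p-values, and these lay in opposite directions. TGFBI, named for its induction by TGF-beta, encodes a secreted matrix protein that binds collagens and integrins. It stood at 77.1, 79.2 and 82.2 FPKM in the agomir libraries, against 90.5, 93.1 and 89.1 FPKM in the agomir NC libraries. The highest agomir library was well below the lowest agomir NC library. Means were 79.5 ± 2.56 and 90.9 ± 2.06 FPKM (mean ± SD, n = 3 each). Its log2 fold change was -0.19 ± 0.043 (SE), lower in 3 of 3 agomir libraries, with limma p-values of 0.00127 unadjusted and 0.225 adjusted. It ranged from -0.22 to -0.17 when each library was left out in turn, and the unadjusted p was at most 0.00777.

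The ID genes encode helix-loop-helix proteins that lack a DNA-binding region and hold back differentiation factors, and ID1, ID2 and ID3 are rapid targets of BMP. ID3 stood at 55.9, 59.7 and 59.7 FPKM in the agomir libraries, against 50.9, 52.5 and 51.9 FPKM in the agomir NC libraries. The groups were separate, with agomir replicate 1 the lowest of its group. Means of ID3 were 58.4 ± 2.18 and 51.8 ± 0.794 FPKM (mean ± SD, n = 3 each). The log2 fold change of ID3 was 0.17 ± 0.045 (SE), higher in 3 of 3 agomir libraries, with limma p-values of 0.00360 unadjusted and 0.285 adjusted. ID1 stood at 48.5, 50.1 and 53.4 FPKM in the agomir libraries, against 48.0, 37.7 and 49.4 FPKM in the agomir NC libraries. Agomir NC replicate 2 was far below the other 5 libraries. The log2 fold change of ID1 was 0.18 ± 0.092 (SE), and without that library it was 0.055. Its unadjusted p was 0.0298 without agomir NC replicate 3. ID2 lay at 39.9 to 47.4 FPKM with overlapping groups and a log2 fold change of 0.11 ± 0.071 (SE), which was 0.18 without agomir NC replicate 3 (unadjusted p of 0.0207) and 0.070 without agomir NC replicate 1. ID4 lay at 9.04 to 10.9 FPKM with overlapping groups and a log2 fold change of -0.071 ± 0.077 (SE), which was -0.010 without agomir NC replicate 1 and -0.14 without agomir NC replicate 2.

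**Figure D2:**
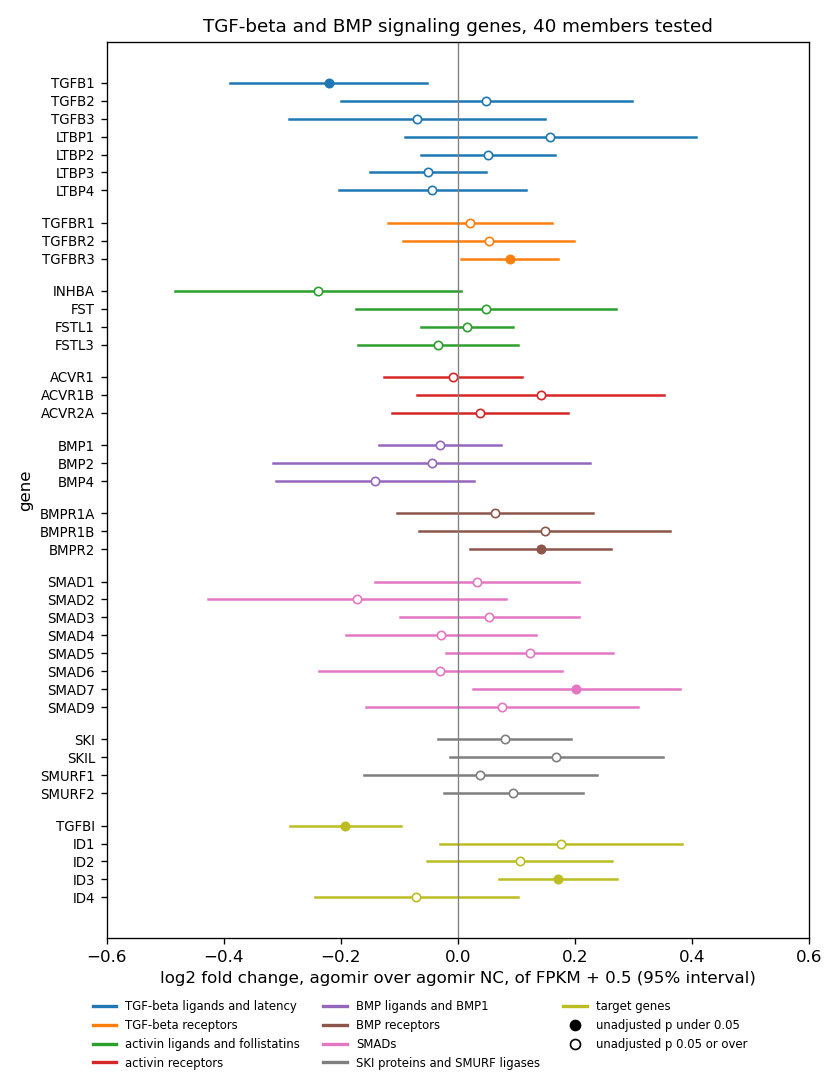
Difference between agomir and agomir NC on the log2(FPKM + 0.5) scale for the 40 members tested, with unadjusted 95% intervals, coloured by role; filled points have an unadjusted p under 0.05 in limma. The intervals of TGFB1 and TGFBI lie below 0, those of TGFBR3, BMPR2, SMAD7 and ID3 above 0, and the other 34 include 0.

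A wider list of the pathway held 108 further genes, 105 of which were analysed here, and 71 were tested. Connective tissue growth factor, now CCN2, was found under its older name CTGF. With limma, 0 of the 71 had an adjusted p under 0.05, and 10 were under an unadjusted p of 0.05, 7 higher and 3 lower, where 10.9% of all genes tested were. There were 4 under an unadjusted p of 0.05 without agomir replicate 2, 4 without agomir replicate 3 and 6 without agomir NC replicate 2, beside 8.09%, 8.86% and 9.57% of all genes in those fits. The groups did not overlap for 11 higher and 5 lower genes, where 10.9% and 6.36% of all genes tested did not. The median log2 fold change was 0.025, and 43 of the 71 were above 0, beside 55.1% of all genes tested.

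Of the 23 other ligands, 19 were below the filter, 11 of them listed at 0 in every library. GDF15, a stress-induced ligand, was the most abundant, at 16.6, 18.4 and 17.6 FPKM in the agomir libraries, against 17.6, 15.1 and 19.5 FPKM in the agomir NC libraries. The agomir NC range enclosed the agomir range, and 0 of the 4 ligands tested were under an unadjusted p of 0.05. The co-receptor ENG (endoglin) led the 5 other receptors and co-receptors tested, at 54.2, 53.7 and 54.0 FPKM in the agomir libraries, against 56.3, 58.2 and 56.5 FPKM in the agomir NC libraries. ENG was lower in every agomir library, at a log2 fold change of -0.078 and an unadjusted p of 0.0829 in limma, and no gene of that list was under 0.05.

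Among the 10 other antagonists and ligand carriers tested, 2 were under an unadjusted p of 0.05, where 10.9% of all genes tested were. These were DCN and LRRC32, in opposite directions. DCN and TWSG1 were the 2 that were lower without overlap, where 6.36% of all genes tested were. DCN (decorin), a small proteoglycan that binds TGF-beta and was the most abundant gene of the list, stood at 2840.4, 2899 and 2850.4 FPKM in the agomir libraries, against 2991, 3102 and 3248 FPKM in the agomir NC libraries. All agomir libraries were lower, a log2 fold change of -0.12 with limma p-values of 0.0196 unadjusted and 0.376 adjusted. LRRC32 (GARP), which tethers latent TGF-beta to the cell surface, stood at 11.3, 11.4 and 8.64 FPKM in the agomir libraries, against 8.88, 7.45 and 8.39 FPKM in the agomir NC libraries. Agomir replicate 3 lay inside the agomir NC range, so the groups overlapped, and the log2 fold change was 0.32 with an unadjusted p of 0.0170 in limma.

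Of the intracellular regulators tested besides SMAD6 and SMAD7, 6 of 27 were under an unadjusted p of 0.05, where 10.9% of all genes tested were. FKBP1A, which binds the resting type I receptor and was the most abundant of them, stood at 245, 227 and 227 FPKM in the agomir libraries, against 251, 248 and 258 FPKM in the agomir NC libraries. It was lower in every agomir library, with agomir replicate 1 nearest to the agomir NC libraries, and its log2 fold change was -0.11. HIPK2, a nuclear kinase that acts with SKI as a corepressor of BMP signaling, stood at 0.560, 0.399 and 0.551 FPKM in the agomir libraries, against 1.34, 0.828 and 0.819 FPKM in the agomir NC libraries. The groups did not overlap, though the level was near the filter, and the log2 fold change was -0.56 with limma p-values of 0.00915 unadjusted and 0.330 adjusted.

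The other regulators under an unadjusted p of 0.05 were higher with the agomir and did not overlap. RNF111 (Arkadia), a ligase that degrades SMAD7 and SKIL, stood at 7.81, 8.35 and 7.86 FPKM in the agomir libraries, against 6.71, 6.27 and 7.66 FPKM in the agomir NC libraries. SNW1 (SKIP), a splicing factor and SMAD coregulator, stood at 35.9, 38.6 and 37.6 FPKM in the agomir libraries, against 32.2, 32.4 and 35.6 FPKM in the agomir NC libraries. For both genes agomir NC replicate 3 came close to the lowest agomir library. USP11, a deubiquitinase that acts on TGFBR1, stood at 22.1, 21.6 and 22.9 FPKM in the agomir libraries, against 20.8, 18.8 and 20.5 FPKM in the agomir NC libraries. ZFYVE9 (SARA), which brings SMAD2 and SMAD3 to the receptor, stood at 5.24, 4.94 and 4.85 FPKM in the agomir libraries, against 4.75, 4.02 and 4.12 FPKM in the agomir NC libraries. In both cases agomir NC replicate 1 was the nearest to the agomir group. The log2 fold changes were 0.21 for RNF111, 0.16 for SNW1, 0.14 for USP11 and 0.20 for ZFYVE9.

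Of the textbook TGF-beta targets outside the members, 1 of 20 tested was under an unadjusted p of 0.05, where 10.9% of all genes tested were. This was CDKN2B, a cell cycle inhibitor induced by TGF-beta, at 11.9, 15.6 and 15.4 FPKM in the agomir libraries, against 11.7, 9.97 and 12.3 FPKM in the agomir NC libraries. Agomir replicate 1 lay within the agomir NC range, and the log2 fold change was 0.32 with an unadjusted p of 0.0172 in limma. The most abundant target, COL3A1, overlapped between the groups. Of 6 other textbook BMP targets tested, 1 was under 0.05, beside the same 10.9%. This was ATOH8, at 7.58, 8.79 and 9.18 FPKM in the agomir libraries, against 8.03, 5.87 and 6.24 FPKM in the agomir NC libraries. Agomir NC replicate 1 lay above agomir replicate 1, and the log2 fold change of ATOH8 was 0.33 with an unadjusted p of 0.0185 in limma. RUNX2, an osteogenic transcription factor and the most abundant of these, lay at 16.6 to 21.0 FPKM with overlapping groups.

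Among the markers of the cultured cells themselves, 3 of the 12 stromal markers tested, NT5E, DCN and PPARG, were under an unadjusted p of 0.05, where 10.9% of all genes tested were. The groups did not overlap for 5 of the 12, where 17.2% of all genes tested did not: NT5E, DCN and ENG were lower with the agomir, and PPARG and ZNF423, a preadipocyte transcription factor, were higher. Of the stromal list, 12 of 14 were tested, and it summed to 23091, 23896 and 23045 FPKM with the agomir and to 23053, 24349 and 23985 FPKM with agomir NC. NT5E, the surface marker CD73, stood at 71.7, 70.6 and 77.5 FPKM in the agomir libraries, against 83.1, 89.2 and 89.4 FPKM in the agomir NC libraries. It was lower in all agomir libraries, as DCN was, at a log2 fold change of -0.25 with limma p-values of 0.000692 unadjusted and 0.209 adjusted. PPARG, the master regulator of adipogenesis, stood at 3.99, 3.69 and 3.91 FPKM in the agomir libraries, against 3.39, 3.34 and 2.96 FPKM in the agomir NC libraries. PPARG was higher in all agomir libraries, at a log2 fold change of 0.23 with limma p-values of 0.0310 unadjusted and 0.407 adjusted. FABP4, a fatty acid carrier of maturing adipocytes, stood at 1.82, 2.33 and 1.54 FPKM in the agomir libraries, against 3.57, 2.21 and 2.88 FPKM in the agomir NC libraries. Agomir replicate 2 lay above agomir NC replicate 2, and the log2 fold change of FABP4 was -0.49 with an unadjusted p of 0.0160 in limma. Of the 5 mature adipocyte markers tested, FABP4 was the 1 under an unadjusted p of 0.05, and CIDEA was the 1 whose groups did not overlap, higher with the agomir. The mature adipocyte list summed to 17.2, 17.9 and 16.6 FPKM with the agomir and to 17.7, 17.1 and 17.9 FPKM with agomir NC. The part of these markers in the differences of TGFBI, TGFB1 and the other members was not tested.

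Markers of other cell types were near 0 or overlapped between the groups, except for the sum of the epithelial list. TAGLN, the most abundant of 8 smooth muscle and pericyte markers and also a TGF-beta target, stood at 276, 284 and 276 FPKM in the agomir libraries, against 294, 271 and 287 FPKM in the agomir NC libraries, which overlapped. That list summed to 496 to 508 FPKM with the agomir and 483 to 537 FPKM with agomir NC. ACTA2 lay at 195.9 to 219.5 FPKM, CNN1 at 11.4 to 17.3 FPKM and CSPG4 at 4.26 to 5.91 FPKM, all with overlapping groups. MYH11 did not exceed 0.433 FPKM, and DES, RGS5 and MCAM were also below the filter. Of 7 endothelial markers VWF was the most abundant, at 2.99 to 3.67 FPKM. PECAM1 did not exceed 0.147 FPKM, CLDN5 and EMCN were listed at 0, and the sum was 3.77 to 4.50 FPKM with the agomir and 4.02 to 4.54 FPKM with agomir NC. Of 7 immune markers CD14 was the most abundant, at 5.85 to 6.45 FPKM. The pan-leukocyte gene PTPRC did not exceed 0.119 FPKM, and the immune sum was 7.32 to 8.74 FPKM with the agomir and 8.09 to 8.63 FPKM with agomir NC. The 6 epithelial markers, led by EPCAM, summed to 0.145, 0.169 and 0.221 FPKM with the agomir and to 0.311, 0.239 and 0.379 FPKM with agomir NC. That sum was lower in every agomir library, at a level near 0, with KRT18, KRT5 and KRT14 listed at 0, and its part in the differences of the members was not tested. Of 5 Schwann and neural markers, S100B was the most abundant, at 3.08 to 4.87 FPKM, and SOX10 was listed at 0, with a sum of 3.21 to 5.05 FPKM with the agomir and 4.25 to 5.06 FPKM with agomir NC. Of the 4 smooth muscle, 2 endothelial, 2 immune and 1 Schwann and neural markers tested, 0 had an unadjusted limma p under 0.05, and no epithelial marker was high enough to be tested.

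TGFBI, the member with the smallest p, was compared with every other gene tested by Pearson's r of log2(FPKM + 0.5) over the 6 libraries, as a description only. The 5 genes with the highest r were GPBAR1, a bile acid receptor (0.992), the newly assembled gene Bos_taurus_newGene_348 (0.987), IFNAR2, a chain of the type I interferon receptor (0.986), CGREF1 (0.986) and RUNX1, a transcription factor (0.985). Each of the 5, like TGFBI, was lower in all 3 agomir libraries than in any agomir NC library. Because the 5 were picked for their likeness to TGFBI, whose groups did not overlap, that separation is not a separate result. RUNX1, for example, stood at 34.8, 35.7 and 35.7 FPKM in the agomir libraries, against 38.8, 39.9 and 38.7 FPKM in the agomir NC libraries. GPBAR1 was far less abundant than TGFBI, at 0.472, 0.511 and 0.657 FPKM in the agomir libraries, against 0.957, 0.996 and 0.921 FPKM in the agomir NC libraries.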

How the data were processed

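FPKM values per gene and library were deposited by the authors; the submitters' processing notes name fastp, HISAT2, StringTie and the genome build ARS-UCD1.2, without versions. Whole reads could not be recovered: of 2158 genes with low values, no more than 8 fell in the same bin of width 0.002 of the log2 ratios between libraries.

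Genes averaging 0.5 FPKM or more across the 6 libraries were taken as log2(FPKM + 0.5) and compared with limma 3.58.1 in R 4.3.3 (moderated test, variance trend, two-sided, no replicate term), with Benjamini-Hochberg adjustment over 12422 genes. Single members were also compared by exact permutation. The fit was checked on simulated data.

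Named with every value are members under an unadjusted p of 0.05, those whose groups do not overlap and the most abundant of each role, and, from the other lists, genes under 0.05. The most abundant gene of each other list is named too, with every value, a range or, for EPCAM, only the sum of its list. Pseudocounts of 0.1 and 1, other filters, scalings, variance models, library weights, a replicate block and leaving out each library were tried. The counts of members whose groups do not overlap, and their alternatives, were added after seeing the data. The members and lists were chosen with earlier results of these data known. Sequences planned for description were not analysed here.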

Additional observations from a re-analysis of the deposited data

How the results depend on the processing

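Of the 15 alternatives, 4 (the filters, the variance trend and the replicate block) leave a fold change as it is. Over the other 11, 420 of 440 single-member fold changes kept their direction and 20 turned, all of them with a library left out. No member had an adjusted p under 0.05 in limma under any of the 15. Leaving out each library in turn, the log2 fold changes that turned ranged from -0.037 to 0.019 for ACVR1, -0.0022 to 0.063 for ACVR2A, -0.061 to 0.0062 for BMP1, -0.12 to 0.0026 for BMP2, -0.069 to 0.14 for FST, -0.055 to 0.0040 for FSTL3, -0.0030 to 0.090 for LTBP2, -0.080 to 0.019 for LTBP4, -0.029 to 0.066 for SMAD1, -0.015 to 0.12 for SMAD3, -0.092 to 0.032 for SMAD4, -0.079 to 0.028 for SMAD6, -0.016 to 0.10 for SMURF1, -0.040 to 0.12 for TGFB2, -0.17 to 0.0020 for TGFB3 and -0.022 to 0.070 for TGFBR1. The members' median log2 fold change was 0.029 after median-ratio scaling, 0.025 after quantile normalization, and 0.022 to 0.060 with a library left out. The number of members under an unadjusted p of 0.05 was 3 to 7 with a library left out, with 1 to 4 higher and 1 to 4 lower; quantile normalization gave 4 lower. For the other pathway genes that number was 4 to 12. Members whose groups did not overlap, an alternative chosen after seeing the data, numbered 7 to 16 higher and 4 to 5 lower with a library left out, where fewer libraries make separation easier.

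Over all genes tested, 1 gene had an adjusted p under 0.05 in limma; there were 0 with no filter, with no variance trend and with the replicate block (unadjusted p under 0.05: 1604, 1249 and 1260 genes, or 8.69%, 10.1% and 10.1% of those tested, against 1359, or 10.9%), and with a library left out 0 to 2. Median-ratio scaling split the genes under an unadjusted p of 0.05 into 673 higher and 688 lower, against 824 and 535. The replicate numbers share only a label: same-numbered libraries correlated at -0.051, 0.053 and 0.039 in their deviations from the group means, and with the replicate block 6 members were under an unadjusted p of 0.05, 4 higher and 2 lower, with ID1 (0.0428) in place of TGFBR3 (0.0744). For the other shifts the cause was not tested. The depth behind the FPKM values is unknown, so counting error could not be given for low members such as NOG, GREM1 and BMP6.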
